A study of Mus musculus with 8 samples.

Results

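The genes described here encode the laminins and nidogens of basement membranes and the integrins that bind cells to matrix. They were taken by symbol from the platform annotation: every gene named Itga or Itgb with digits, Lama, Lamb or Lamc with a digit, or Nid1 or Nid2, leaving out Itga2b, Itgam, Itgb2 and Itgb3. The rule found 29 genes of 18194 measured, of which 10 were laminin chains, 2 nidogens, 10 integrin alpha and 7 integrin beta subunits. Itga11 was not analysed here. Each gene was read at its brightest probe set, the one with the highest mean over all arrays.

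The study measured RNA from the mandibular arch, the embryonic tissue of the lower jaw, at embryonic day 11.5 on 8 Affymetrix arrays. The 4 mutant samples were Alk5 fl/fl; Wnt1-Cre embryos, in which the Wnt1-Cre driver inactivates the floxed Alk5 gene in cranial neural crest cells and leaves other arch cells with the gene. The 4 control samples were Alk5 fl/fl embryos, which carry the same floxed alleles and for which the labels name no Cre. All were C57BL/6J, with sex not determined. Alk5 is another name of Tgfbr1, the type I TGF-beta receptor, and setting mutants beside controls asked how its loss in the crest affects the arch where crest and muscle precursors meet. Whether the driver itself acts cannot be told apart here from the loss of the receptor. The labels number the samples without saying that each came from a separate embryo or litter, so the p-values rest on a sample-to-sample spread that may be technical.

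Laminins are cross-shaped heterotrimers of an alpha, a beta and a gamma chain that polymerize at the base of epithelia and around muscle, vessels and nerve. Nidogens link the laminin network to type IV collagen. Integrins are alpha-beta heterodimers, among them receptors for laminins, collagens, fibronectin and other ligands, and the alpha v partners Itgb6 and Itgb8 are also known for releasing TGF-beta from its latent complex.

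Lama1 was the single member past the test between mutant and control arches, and it rose 1.61-fold. It is the alpha chain of the laminin of early embryonic basement membranes. Among the other 28 members none passed an adjusted p under 0.05 in limma, a moderated linear model fitted over all genes. By unadjusted p, 5 of those 28 were under 0.05, all 5 lower in mutants: Itga8, Lama2, Itgb5, Itgb1 and Nid1. Thus 1 of 29 members (3.45%) was called, against 2.14% of all genes, a share near the background. Called higher were 1 member and 0.835% of all genes, and called lower were 0 members and 1.31% of all genes. The unadjusted p was under 0.05 for 6 members (20.7%) and for 13.5% of all genes. Of the members 1 was higher (3.45%) and 5 were lower (17.2%), against 4.52% and 8.95% of all genes. All 5 lower members lay above the median level, at percentiles 55.2 to 87.4. Mutant 3 was the lowest mutant for 81.5% of all genes above that level. The shares of all genes were not matched for level. Groups did not overlap in 4 members (13.8%), namely Lama1 and Itga7 with mutants higher and Itgb1 and Itgb5 with mutants lower, and in 10.3% of all genes. By direction these were 2 members higher, against 3.27% of all genes, and 2 lower, against 7.02%. For Itgb1 and Itgb5 the groups overlapped at the next probe set in brightness. The median log2 fold change, mutant minus control, was 0.01 over the members and -0.01 over all genes, with 16 members above 0 and 13 below. Of the 16, Itga6, Itga10, Itgb7 and Lama3 were below 0 when each array was centred on its median, and Itga10 and Lama3 also after quantile normalization again.

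**Figure D1:**
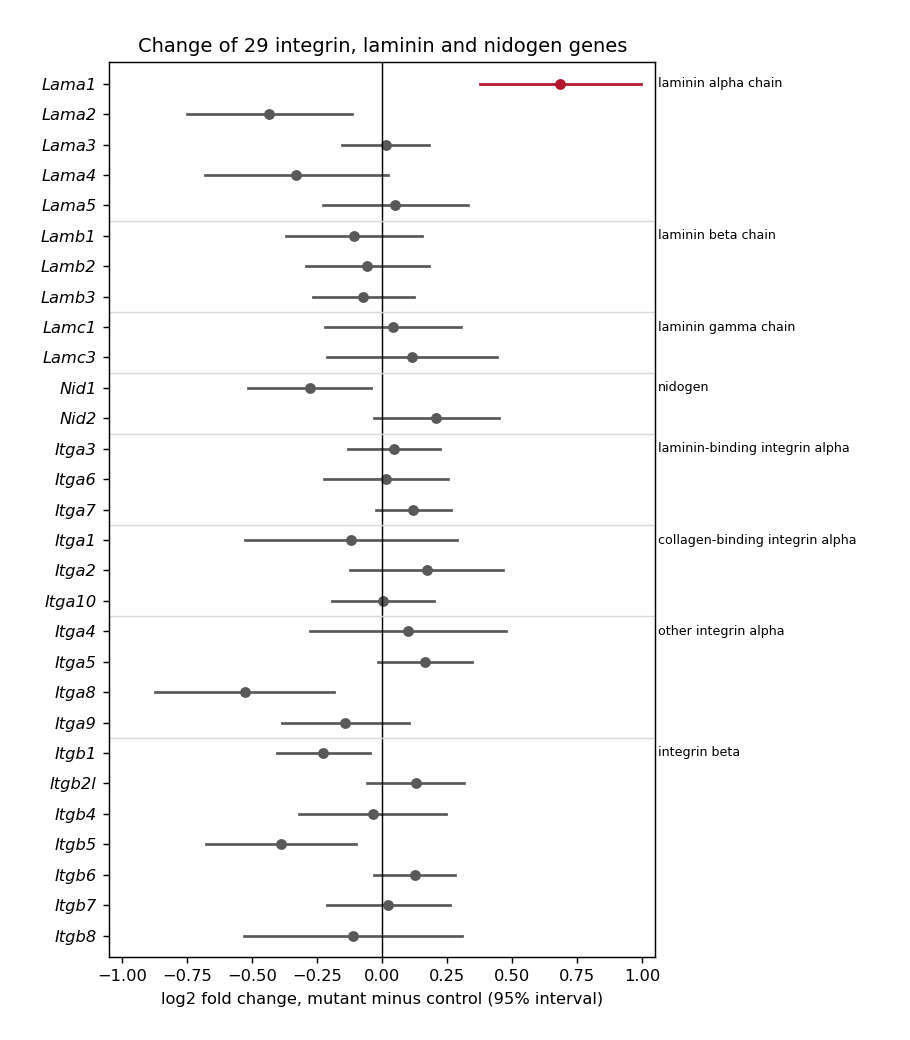
Log2 fold change of each of the 29 genes (mutant minus control, horizontal axis), with dots for the fitted change and lines for its 95% interval, grouped by kind of chain. Lama1 (red, 0.69) is the member past an adjusted p of 0.05; Itga8 (-0.53) and Lama2 (-0.43) lie lowest.

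Within 0.5 of 0, the share of members with a bounded change was below that of all genes. Of the 29 members, 14 lay below the median level of all genes. The processing compresses changes of dim genes, so a narrow interval there need not mean a small change in RNA. The 95% interval of the log2 change lay within 0.5 of 0 (a fold of 1.41) for 21 of 29 members (72.4%) and for 80.9% of all genes, and within 1 of 0 for all 29 members and 97.4% of all genes.

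The arrays were not alike in spread. Probe set values had an SD of 2.42 on mutant replicate 3 and of 2.52 to 2.56 on the other arrays. Mutant 3 was the lowest of the mutants for 81.5% of all genes above the median level and the highest for 56.8% of those below it. Among members above the median level it was lowest in 9 of 15, and among those below it highest in 10 of 14. Markers of the tissue were high on average in both groups. The 12 genes of arch mesenchyme averaged 10.41 to 10.59 per mutant array and 10.57 to 10.69 per control array. The median of all probe sets was 6.28 to 6.42. Prrx1 and Hand2 were among the bright ones, but not all 12 were high. Hand1 was at percentile 49.9 of gene levels, and Alx4, at 30.1, averaged 6.03 in mutants and 6.09 in controls. Tgfbr1 read 12.98 ± 0.0115 in mutants and 12.79 ± 0.0844 in controls (log2, SD, n = 4 each; limma adjusted p = 0.232). Which exon is floxed and where the probes lie is not known here, so these values check neither deletion nor label. In this bulk tissue, fewer cells of a type and less RNA per cell cannot be told apart.

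The changes of the laminin alpha chains differed in sign. Lama1 read 8.26, 8.61, 7.93 and 8.15 on mutant arrays 1 to 4, against 7.55, 7.43, 7.47 and 7.76 on control arrays 1 to 4 (log2 expression). Every mutant array lay above every control array, with mutant 2 the highest mutant and control 4 the highest control. The means were 8.24 ± 0.282 in mutants and 7.55 ± 0.146 in controls (SD, n = 4 each). The log2 fold change was 0.69 ± 0.139 (SE; 95% interval 0.37 to 1.00, limma adjusted p = 0.0399). The call was close to the threshold: over 19 alternatives the change kept its direction, between 0.56 and 0.86, while the adjusted p ran from 0.00312 to 0.147. Lama1 did not pass without control 1 (adjusted p = 0.113), control 2 (0.142), control 3 (0.147), mutant 1 (0.0932) or mutant 4 (0.102), when each array was centred on its median (0.0634), with the replicate number as a block (0.0708), or when p-values were adjusted over all probe sets (0.0533). It is represented by 1 probe set. Without mutant 3 the change was 0.79 (limma adjusted p = 0.0183). In the same samples 15 epithelial markers, of cells known to make Lama1, averaged 9.01 to 9.75 per mutant array, lowest on mutant 3, and 9.52 to 9.81 per control array, with 0 past the threshold and a median change of -0.18. Of 16 macrophage markers 11 rose (68.75%, against 0.835% of all genes called higher). Their median change was 1.03, C1qb the most at 1.54, with a mean of 7.96 to 8.44 per mutant array and 7.25 to 7.37 per control array. Their part in the change of Lama1 was not tested.

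Lama2, the alpha chain of muscle and nerve basement membranes, had a change of the opposite sign that did not pass. It read 7.70, 8.21, 7.76 and 7.76 on the mutant arrays and 8.27, 8.54, 8.34 and 8.002 on the control arrays. Mutant 2 overlapped the controls, and the other 3 mutants lay below all of them. The log2 fold change was -0.43 ± 0.141 (SE; 95% interval -0.75 to -0.12, limma adjusted p = 0.195).

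Lama4, a chain of vessel and mesenchymal laminins, read 8.86, 9.22, 8.55 and 8.76 in mutants and 9.20, 9.41, 9.26 and 8.84 in controls. Mutants 1 and 2 lay within the range of the controls, mutant 1 just above control 4, and control 4 lay among the mutants. Its change was -0.33 ± 0.157 (SE, limma adjusted p = 0.409). Lama5, the broadly expressed alpha chain of epithelial and vessel basement membranes, differed by 0.05 (95% interval -0.23 to 0.33), with 6.95, 7.18, 7.53 and 7.12 in mutants against 7.005, 7.32, 7.17 and 7.08 in controls. Lama3, the alpha chain of the epidermal laminin, differed by 0.01 and was dim, at percentile 28.2 of gene levels.

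The differences of Lama1 from the other alpha chains within an array are given as a description, with no test, since these pairs were chosen after the call of Lama1 was known. The log2 difference Lama1 minus Lama2 was 0.38 ± 0.161 in mutants and -0.74 ± 0.367 in controls (SD, n = 4 each), a shift of 1.12 between groups that did not overlap. For Lama1 minus Lama4 the groups did not overlap either and the shift was 1.02. The groups were also apart for Lama1 minus Lama3, with a shift of 0.67, where Lama3 alone differed by 0.01. Against Lama5 the shift was 0.64 and the groups overlapped.

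The beta and gamma chains with which Lama1 assembles did not pass. Lamb1 read 11.60, 11.88, 11.51 and 11.38 in mutants and 11.91, 11.69, 11.61 and 11.61 in controls. Lamc1 read 8.18, 8.50, 8.12 and 7.97 in mutants and 8.27, 8.15, 8.20 and 7.99 in controls. Both sets of groups overlapped, and the changes were -0.11 (95% interval -0.37 to 0.15) for Lamb1 and 0.04 (-0.22 to 0.30) for Lamc1. The second probe set of Lamc1, also above the median level, gave 0.21. The other probe sets of Lamb1 gave -0.08, -0.17 and -0.004. The remaining chains were Lamb2 (-0.06), the synaptic and kidney beta chain, Lamb3 (-0.07), the partner of Lama3, and Lamc3 (0.11), with limma adjusted p-values of 0.776 to 0.858.

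Nidogens had opposite signs. Nid1 read 10.57, 11.06, 10.66 and 10.72 in mutants and 10.98, 11.08, 11.10 and 10.97 in controls, so that mutant 2 lay within the controls and the other 3 mutants below them. Nid2 read 9.47, 9.82, 9.30 and 9.52 in mutants and 9.23, 9.40, 9.32 and 9.33 in controls, so that mutant 3 lay within the controls and the other 3 mutants above them. Singly neither passed, with changes of -0.28 ± 0.106 for Nid1 (SE, limma adjusted p = 0.277) and 0.21 ± 0.107 for Nid2 (SE, limma adjusted p = 0.456). At the brightest probe set of each, the within-array difference Nid2 minus Nid1 did not overlap between the groups. It was -1.22 ± 0.112 in mutants and -1.71 ± 0.0631 in controls (SD, n = 4 each), a shift of 0.49. The separation depends on the probe set of Nid1. Its next in brightness, also above the median level, gave a change of -0.11, and with it the groups overlapped. The dimmest gave 0.04. This pair was set side by side with the opposite signs known, so the shift is a description, with no test.

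**Figure D2:**
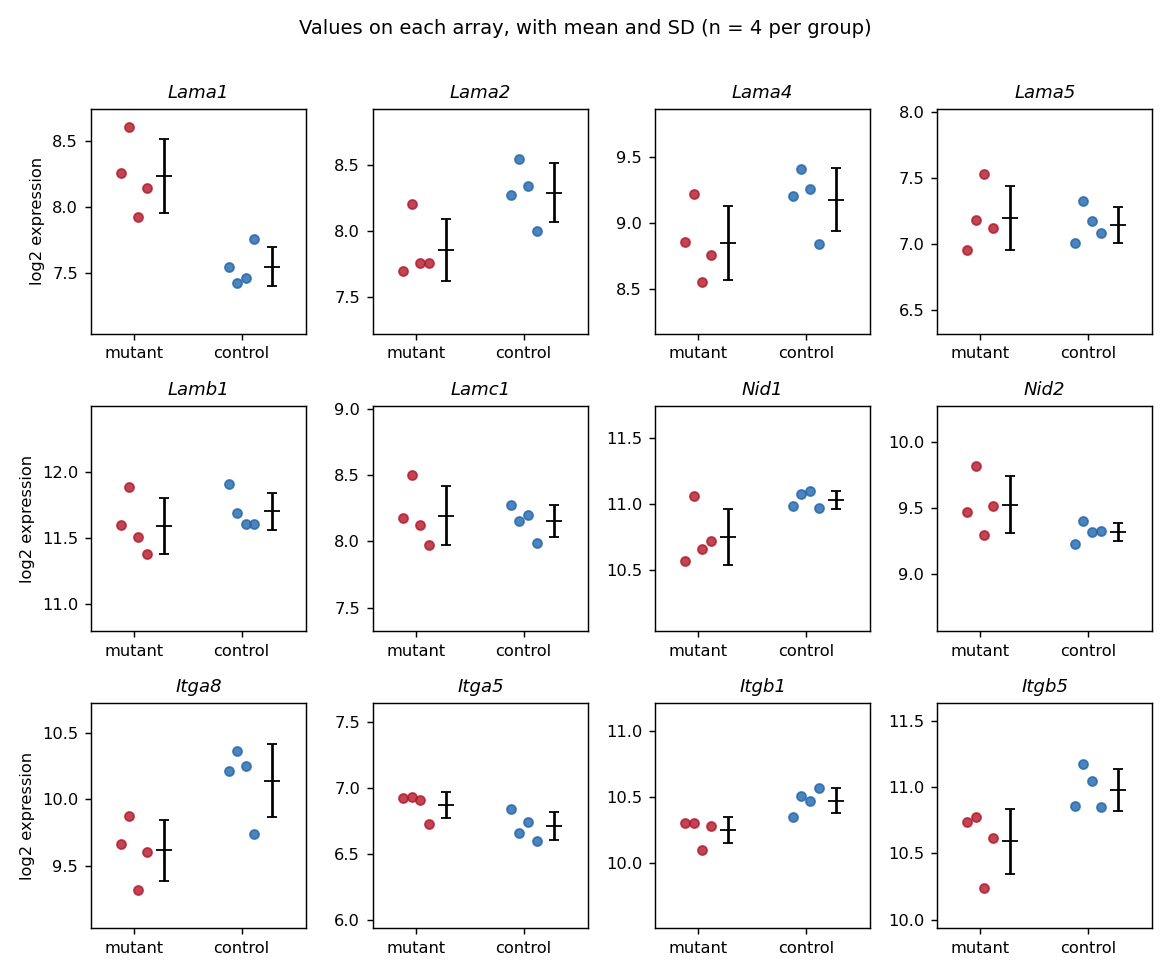
Log2 expression of 12 members on each of the 4 mutant (red, left) and 4 control (blue, right) arrays, with mean and SD in black. Each panel spans the same range of log2 units, so spreads can be compared. At the brightest probe sets, shown here, the groups are apart for Lama1, Itgb1 and Itgb5, whereas 1 control lies among the mutants for Itga8.

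Among integrins 0 of 17 passed in limma. By unadjusted p 3 were under 0.05, each lower in mutants (17.6%, against 8.95% of all genes, not matched for level). Of the receptors for laminin, Itga6 and Itga3 differed by 0.01 (95% interval -0.22 to 0.25) and 0.04 (-0.13 to 0.22). Itga7, the laminin receptor of muscle, was 6.27 ± 0.0554 in mutants and 6.15 ± 0.0413 in controls (SD, n = 4 each). Its groups did not overlap, but the change of 0.12 was small (limma adjusted p = 0.483) and the gene was dim, at percentile 32.2. Muscle markers, 12 measured with 0 past the threshold, averaged 7.48 to 8.75 per mutant array and 7.36 to 9.19 per control array, and their part in the Itga7 values was not tested. Itgb4, the partner of Itga6 in hemidesmosomes, differed by -0.04.

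Itga8, which pairs with Itgb1 and binds nephronectin and fibronectin, had the lowest change of all members. It read 9.67, 9.87, 9.31 and 9.61 in mutants and 10.21, 10.37, 10.25 and 9.74 in controls. Control 4 lay below mutant 2, and the other 3 controls lay above all mutants. The log2 fold change was -0.53 ± 0.153 (SE; 95% interval -0.87 to -0.18, limma adjusted p = 0.138). Its second probe set, which is dim, gave -0.56. Without control 4 the change was -0.66 and passed (limma adjusted p = 0.0307).

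Itgb1, the common beta subunit of most matrix-binding integrins, read 10.30, 10.30, 10.10 and 10.28 in mutants and 10.35, 10.51, 10.47 and 10.56 in controls. The groups did not overlap, by a gap that was narrow beside the spread. The change was -0.23 ± 0.0792 (SE, limma adjusted p = 0.234). Of its other 5 probe sets, the next in brightness gave -0.14, a further 3 gave -0.05, -0.06 and -0.11, and the dimmest gave 0.11. At the next in brightness the groups overlapped, with mutant 2 (10.19) above control 1 (10.16).

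Itgb5, a vitronectin-binding partner of alpha v, read 10.73, 10.78, 10.24 and 10.62 in mutants and 10.86, 11.17, 11.04 and 10.85 in controls. All mutants lay below all controls, mutant 3 farthest. The change was -0.39 ± 0.129 (SE, limma adjusted p = 0.204), and its other 3 probe sets gave -0.37, -0.26 and -0.37. At the one that gave -0.26, the next in brightness, the groups overlapped, with mutant 2 (10.715) above control 4 (10.707). Without mutant 3 the change at the brightest probe set was -0.27 (limma adjusted p = 0.167).

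Itga5, the fibronectin receptor subunit, read 6.92, 6.93, 6.91 and 6.73 in mutants and 6.84, 6.66, 6.74 and 6.60 in controls, with mutant 4 among the controls. The change was 0.16 ± 0.0813 (SE, limma adjusted p = 0.43). Among the TGF-beta activating subunits, Itgb8 averaged 8.19 ± 0.42 in mutants and 8.30 ± 0.155 in controls, a change of -0.11 with a wide 95% interval of -0.53 to 0.31, and mutant 3 was its lowest array. Itgb6, which is known from epithelia, was dim (percentile 12.1) and differed by 0.12 (limma adjusted p = 0.498). The other integrins were the collagen receptors Itga1 (-0.12), Itga2 (0.17) and Itga10 (0.00), the VCAM-binding subunits Itga4 (0.10) and Itga9 (-0.14), and Itgb7 (0.02) and Itgb2l (0.13). Their limma adjusted p-values were 0.577 to 0.987.

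The regions before the gene starts were searched for CAGAC, the core letters of the Smad-binding element, on both strands in the 250 bases before each start (RefSeq, GRCm38.p6). Of the 29 members, 20 matched the promoter table, Lama1 not among them, and 15 of their 23 promoters (65.2%) held a match, compared with 42.2% of all 32851 promoters. Some members had several promoters, and the shares were not matched for base composition. No test was run, so no conclusion is drawn from the gap. To show what the search read, the sequences of the 4 lower members with the smallest p follow, each 5′ to 3′ on its own strand, with CAGAC or its reverse complement in capitals. They are Itga8 (chr2:12301945-12302194, minus strand), Lama2 (chr10:27616943-27617192, minus strand), Itgb5 (chr16:33829415-33829664, plus strand) and Itgb1 (chr8:128685404-128685653, plus strand).
Itga8: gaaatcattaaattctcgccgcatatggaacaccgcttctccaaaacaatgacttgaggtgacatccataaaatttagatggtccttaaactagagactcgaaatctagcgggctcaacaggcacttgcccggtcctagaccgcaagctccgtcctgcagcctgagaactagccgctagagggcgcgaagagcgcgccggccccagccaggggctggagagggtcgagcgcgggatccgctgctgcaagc
Lama2: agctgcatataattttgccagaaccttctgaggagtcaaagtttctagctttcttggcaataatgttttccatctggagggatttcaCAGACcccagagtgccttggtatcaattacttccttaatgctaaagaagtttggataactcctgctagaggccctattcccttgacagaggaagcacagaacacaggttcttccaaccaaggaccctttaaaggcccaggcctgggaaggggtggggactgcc
Itgb5: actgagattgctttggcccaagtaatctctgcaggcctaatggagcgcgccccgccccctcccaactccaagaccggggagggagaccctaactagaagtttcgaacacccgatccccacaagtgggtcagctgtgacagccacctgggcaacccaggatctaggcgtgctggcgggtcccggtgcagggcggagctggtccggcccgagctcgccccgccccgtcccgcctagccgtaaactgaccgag
Itgb1: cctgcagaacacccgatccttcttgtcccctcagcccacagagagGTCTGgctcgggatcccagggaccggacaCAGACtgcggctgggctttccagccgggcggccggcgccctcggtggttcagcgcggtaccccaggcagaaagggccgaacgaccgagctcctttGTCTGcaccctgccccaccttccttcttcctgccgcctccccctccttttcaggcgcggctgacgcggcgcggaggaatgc
The match was found 3 times before Itgb1 and 1 time before Lama2. In the windows of Itga8, Itgb5 and Nid1 there were 0, although all 5 genes had lower values in mutants. A match describes the letters only.

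Across arrays, the members above the median level shared a pattern. Mutant 2 was the highest mutant array in 13 of these 15 members (86.7%), against 34.6% of all genes above the median level. Control 4 was the lowest control in 10 of the 15 (66.7%), against 26.4% of such genes. These shares are a description, since members of the same array share its library.

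**Figure D3:**
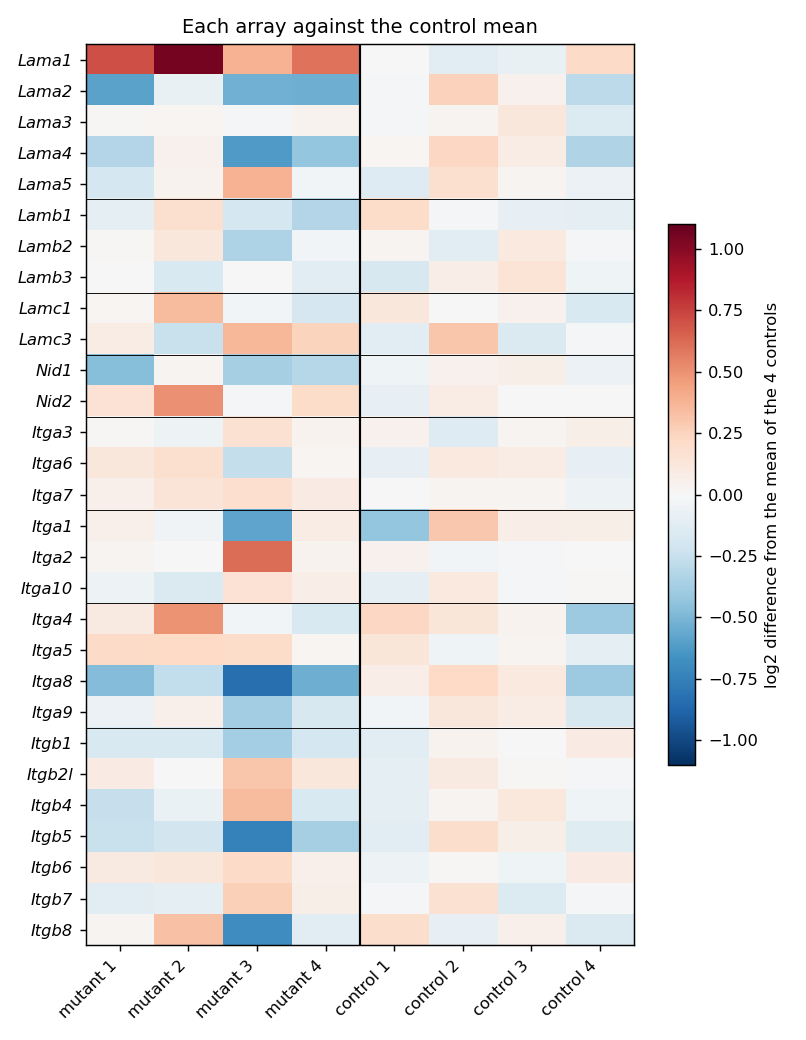
Each member's log2 value on each array minus the mean of its 4 controls, from blue (lower) to red (higher), mutants on the left and controls on the right. Lama1 is red on all 4 mutant arrays. Itga8, Lama2 and Itgb5 are blue on the mutants, and Itga8, Lama2 and Lama4 also on control 4.

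Of the wider basement membrane and adhesion genes, 82 of 88 listed were measured, and 0 rose and 2 fell (2.44%), a share near the 2.14% of all genes called (1.31% lower). Their median log2 change was -0.06, against -0.01 over all genes. By unadjusted p under 0.05, 4 of the 82 were higher (4.88%) and 18 lower (22.0%), against 4.52% and 8.95% of all genes. In 11 (13.4%) the groups did not overlap with mutants lower, against 7.02% of all genes.

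Fbln2, a fibulin that binds laminin and nidogen, was the 1 fall among 24 other basement membrane genes. It read 9.45, 9.32, 8.68 and 9.20 in mutants and 9.91, 10.20, 10.47 and 9.89 in controls, all mutants below all controls. The log2 fold change was -0.95 ± 0.181 (SE, limma adjusted p = 0.0321).

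Vcam1, a cell surface ligand of the integrin of Itga4 and Itgb1, was the 1 fall among 15 integrin ligands outside the laminins. It read 9.25, 9.53, 8.88 and 9.06 in mutants and 10.22, 10.13, 10.24 and 10.05 in controls, again without overlap. Its change of -0.98 ± 0.128 (SE, limma adjusted p = 0.0066) kept its call without any single array. Fbln2 did not pass when control 1, control 2, control 3 or mutant 4 was left out, with the mean over its probe sets, or with the replicate number as a block, under which Postn, the matrix protein periostin, passed as lower in its place.

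No gene passed in the other 3 lists. By unadjusted p under 0.05 they held 2 higher (4.65%) and 9 lower (20.9%) genes of 43, against 4.52% and 8.95% of all genes, again not matched for level. Among 9 laminin receptors other than integrins and their partners, the smallest p belonged to Sgcb (-0.37, limma adjusted p = 0.0688), a sarcoglycan, and Dmd (0.37, 0.148), which encodes dystrophin. Of 9 integrin subunits outside the rule, Itgb3 (-0.36, 0.155) and Itgav (-0.31, 0.203) had the smallest p. Itgav is the alpha partner of Itgb5, Itgb6 and Itgb8. Among 25 cytoplasmic partners of integrins these were Tns3, a tensin (-0.38, 0.0882), and Fermt3, a kindlin of blood cells (-0.35, 0.248).

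**Figure D4:**
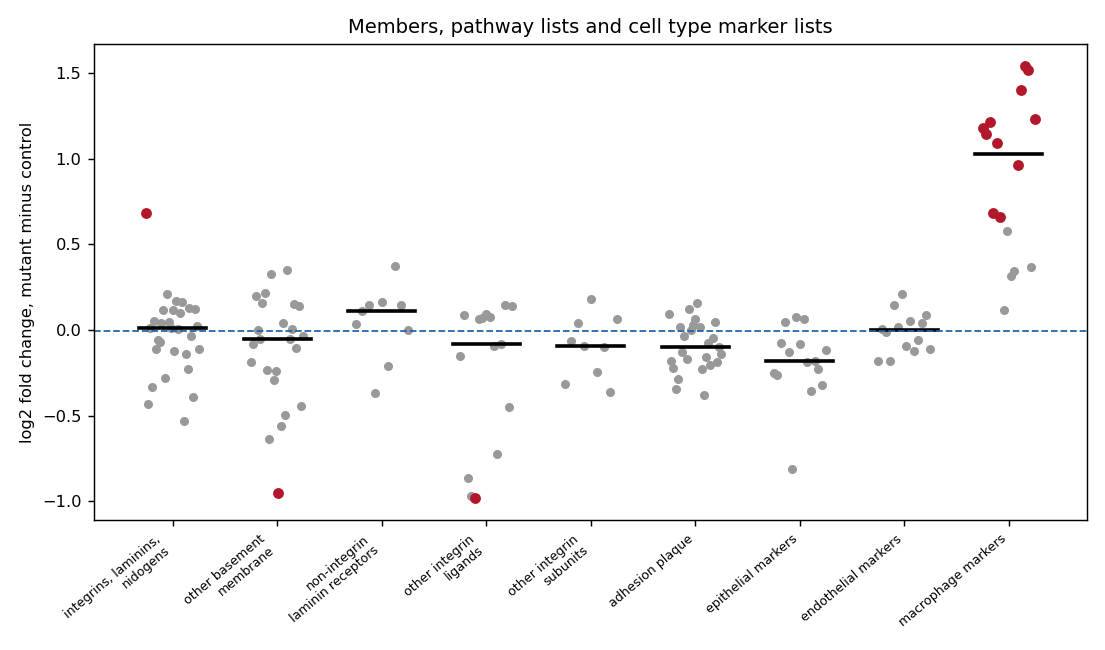
Log2 fold change (mutant minus control) of each gene in the 29 members, 5 pathway lists and 3 cell type marker lists. Dots are genes, red past an adjusted p of 0.05, bars the median of a list and the dashed line the median of all genes (-0.01). The members centre on 0.01 and the macrophage markers on 1.03.

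Markers of other cell types were read on the same arrays. Of 14 endothelial markers 0 passed (median -0.0024), with means of 8.19 to 8.58 per mutant array and 8.38 to 8.47 per control array. Among 8 platelet markers Ppbp (-0.97) and Pf4 (-0.77) fell (25%, against 1.31% of all genes called lower). Platelet means were 7.25 to 7.68 in mutants and 7.60 to 7.95 in controls. Tubb3 (-1.67) was the 1 fall of 9 neuronal markers (11.1%), with means of 6.81 to 7.16 in mutants and 7.17 to 7.53 in controls. Foxd3 (-0.45) was the 1 fall of 4 Schwann cell markers (25%), with 7.59 to 7.95 in mutants and 7.57 to 8.24 in controls. Of the 12 arch mesenchyme markers 0 passed (median -0.18). By unadjusted p under 0.05, 1 epithelial marker was lower (6.67%), and 1 endothelial (7.14%) and 1 muscle marker (8.33%) were higher. Of the arch mesenchyme markers 1 was higher (8.33%) and 5 were lower (41.7%). Lower too were 4 platelet (50%), 2 neuronal (22.2%) and 1 Schwann cell marker (25%), and 15 macrophage markers were higher (93.75%). Of all genes 4.52% were higher and 8.95% lower, not matched for level. The arch mesenchyme markers had a median level percentile of 88.9. In 4 arch mesenchyme markers (33.3%) the groups did not overlap with mutants lower, against 7.02% of all genes, and in 0 with mutants higher. The same held, with mutants lower, for 2 platelet (25%), 1 neuronal (11.1%) and 1 Schwann cell marker (25%). With mutants higher it held for 12 of 16 macrophage markers, against 3.27% of all genes. The epithelial, endothelial and muscle lists held 0 in either direction. The part of these cell types in the members' values was not tested.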

How the data were processed

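Log2 values per probe set of 8 arrays were used as deposited; per the submitters' processing notes the authors made them with RMA (no version stated). This method corrects background, normalizes between arrays and summarizes probes, and it compresses changes of dim genes. Per the labels, total RNA was column-extracted and labelled with biotin. Of 45101 probe sets, 34958 had 1 symbol, 932 several and 9211 none in the platform annotation; the last 2 kinds were not named. No 2 arrays held identical values.

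The fit used limma 3.58.1 (R 4.3.3), lmFit and eBayes, over 18194 genes without covariates, with Benjamini-Hochberg adjustment over all of them, and was tested on simulated arrays. The members had 65 probe sets.

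The members and lists were chosen with earlier results of these data known. Per-array values are given for the 8 members with the smallest p and their partners (Lama5, Lamb1, Lamc1, Nid2); of each list, up to 4 genes past the threshold or the 2 with the smallest p are named; of marker lists up to 3. Alternatives were the replicate number as a block, other probe set choices, a filter, normalizations, variance models, array weights, adjustment over probe sets, another threshold and each array left out. Leaving out mutant 3 and control 4 together was chosen after seeing the data.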

Additional observations from a re-analysis of the deposited data

Results flagged for a closer look

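Of 58 groups of 4 values (29 members in mutants and in controls), 5 held a sample far from the other 3 by Dixon's test at the 95% level, where chance gives about 1 in 20 groups, or 2.9. Mutant 3 was that sample for 2 genes: Itga2 read 7.19 there and 6.58 to 6.62 on the other mutants, and Itgb1 read 10.10 there and 10.28 to 10.30 on the others. Lama2 read 8.21 on mutant 2 and 7.70 to 7.76 on the other mutants. Itga5 read 6.73 on mutant 4 and 6.91 to 6.93 on the other mutants. Among controls, Itga3 read 7.68 on control 2 and 7.85 to 7.89 on the others.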

How the results depend on the processing

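The count of genes called was 390, and 104 to 618 with each array left out. It was 620 after quantile normalization again, 1356 with array weights (which gave mutant 3 a weight of 0.108), 664 at an adjusted p under 0.1 and 1126 without mutant 3 and control 4. The 1 higher member, Lama1, became 0 with the replicate number as a block (adjusted p = 0.0708), with arrays centred on their median and with adjustment over all probe sets, and 0 to 1 with each array left out. The block gave 293 genes in all and 2 lower list genes, Vcam1 and Postn in place of Fbln2. Over all genes, deviations from the group mean correlated at 0.03, 0.00, -0.12 and 0.41 between same-numbered mutant and control samples. Differently numbered samples were not compared, so these values cannot decide whether the numbers pair samples. The labels do not say, and the samples were not treated as pairs. The 0 lower members became 1, Itga8, with array weights and without mutant 3 and control 4 (and 0 to 1 with each array left out). List genes higher numbered 3 after quantile normalization, 2 with array weights and 2 without mutant 3 and control 4 (0 to 1 with each array left out). List genes lower numbered 1 over the mean of probe sets, 4 above the median level, 6 after quantile normalization, 6 with a variance trend and robust estimation together, 10 with array weights, 8 at an adjusted p under 0.1 and 7 without mutant 3 and control 4 (1 to 5 with each array left out).

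Of 29 members, 14 kept their direction under every alternative that measured them, Lama1, Lama2, Lama4, Itga8, Itgb5, Nid1 and Nid2 among them. The other 15, all but Itga5 and Itgb1 with small changes, turned sign under at least 1. With each array left out the log2 changes ran from -0.26 to 0.0315 for Itga1, from -0.0479 to 0.0583 for Itga10, from -0.00252 to 0.0771 for Itga3, from -0.0364 to 0.19 for Itga4, from -0.0397 to 0.11 for Itga6, from -0.17 to 0.0368 for Itgb4, from -0.0542 to 0.0794 for Itgb7, from -0.26 to 0.0763 for Itgb8, from -0.0356 to 0.0563 for Lama3, from -0.0596 to 0.13 for Lama5, from -0.12 to 0.0372 for Lamb2 and from -0.0622 to 0.11 for Lamc1. Array weights gave 0.0129 for Itga1, -0.0388 for Itga10, -0.00500 for Itga3, -0.0127 for Itgb7, 0.0399 for Itgb8, -0.0155 for Lama3 and -0.0626 for Lama5. Without mutant 3 and control 4 the values were 0.0529 for Itga1, -0.043 for Itga10, -0.0574 for Itgb7, 0.0239 for Itgb8, -0.0237 for Lama3, -0.0813 for Lama5, 0.0331 for Lamb2 and -0.18 for Itgb4 (direction kept). The probe set of largest variance gave -0.0464 for Itga4, -0.00845 for Itga5, 0.11 for Itgb1, -0.13 for Itgb6 and -0.0648 for Lama3. Over the mean of probe sets they were -0.00141 for Itga4, -0.00399 for Itgb6 and -0.0253 for Lama3. Quantile normalization again gave -0.0289 for Itga10 and -0.0193 for Lama3. Centring gave -0.0204 for Itga10, -0.0109 for Itga6, -0.00137 for Itgb7 and -0.011 for Lama3. The cause was not tested. The filter left 14 members out, and the number of arrays limits every value.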

Other observations

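Integrin subunits of leukocytes, named here after their values were seen, did not pass although 11 of 16 macrophage markers rose. Itgb2, the common beta subunit of leukocyte integrins, averaged 5.67 ± 0.192 in mutants and 5.77 ± 0.106 in controls (log2, SD, n = 4 each; limma adjusted p = 0.742). Itgam differed by -0.10, Itgax by 0.18 and Itgal by 0.04, with limma adjusted p-values of 0.699 to 0.915. All 4 were dim, at percentiles 5.57 (Itgam), 20.9 (Itgax), 25.3 (Itgb2) and 25.4 (Itgal) of gene levels.

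Vcam1 fell by 0.98 on the log2 scale, while the subunits of its receptor were at 0.10 (Itga4) and -0.23 (Itgb1) and did not pass.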
